A study of Danio rerio with 12 samples.

Results

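Cytochrome P450 enzymes are haem proteins that insert oxygen into fat-soluble molecules, and this account describes their genes in the adult zebrafish kidney. Members were all genes whose zebrafish symbol starts with cyp and a number and whose estimated counts summed to at least 10 over the 12 libraries. Of the 86 such symbols in the files, 4 were set aside by name (cyp7a1, cyp17a2, cyp21a2 and cyp11c1), and 5 did not reach the count minimum (cyp11a1.1, cyp2aa8, cyp2x12, cyp2x6 and cyp2x7). That left 77 of the 30238 genes listed. Another name on the list of exclusions, cyp11a2, matched no symbol. The gene listed as cyp11a1.2 was kept as a member, and whether it is the gene meant by that name is not known.

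Total RNA of whole kidneys was sequenced from 9 samples of fish heterozygous for a pdx1 knockout (pdx1+/-) and from 3 wild-type samples. Pdx1 is a homeobox transcription factor of the developing pancreas and of the beta cell. The series' design text calls the fish adult, and the labels named neither the pdx1 allele nor the strain, sex, age in months or batch, did not say whether a sample was 1 fish, and gave no treatment. The p-values below therefore measure only the spread between these samples, which may in part be technical. Libraries held between 16041392 and 19483852 estimated counts, and a count of 3 was equal to between 0.154 and 0.187 CPM (counts scaled by library size).

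P450s of families CYP1, CYP2 and CYP3 mainly oxidize foreign compounds, and many CYP2 members and the CYP4 family also act on fatty acids. Other families have narrower tasks. CYP7, CYP8B, CYP27A, CYP39 and CYP46 hydroxylate sterols, several of them on the way to bile acids, and CYP51 takes part in making cholesterol. CYP11, CYP17 and CYP19 make steroid hormones, CYP24 and CYP27B act on vitamin D, and CYP26 clears retinoic acid. Microsomal P450s take electrons from P450 reductase, and mitochondrial ones (CYP11, CYP24, CYP27) take them from ferredoxin. In mammals the proximal tubule of the nephron is a main site of renal P450s. The fish kidney holds nephrons beside blood-forming tissue and the interrenal cells, the fish counterpart of the adrenal cortex.

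Markers of the kidney were at high levels in every library. Summed over 16 proximal tubule genes, levels ran from 4072 to 7090 CPM in pdx1+/- samples and from 5696 to 8453 CPM in wild-type samples. The sum over 10 distal tubule and collecting duct genes was 1346 to 2661 CPM in pdx1+/- and 1431 to 2234 CPM in wild-type samples. One library stood apart in hepatocyte genes: heterozygous replicate 4 summed to 2675 CPM over 16 of them, against 166 to 267 CPM in the other 11 libraries. Its transferrin gene tfa was at 495 CPM and its fibrinogen gene fga at 109 CPM, against at most 12.2 and 1.503 CPM elsewhere. For members with a small p that were highest in that library, the log2 fold change without it is given below where it could be fitted. Over all genes, heterozygous replicate 2 differed most from the rest. Its chi-square per gene was 126 to 159 against each other library, and at most 83.9 in pairs without it. It also had the lowest proximal tubule sum, 4072 CPM, and the highest macrophage sum, 3577 CPM against at most 2758 CPM elsewhere. The estimated count of pdx1 itself was 0 in 5 of the 9 pdx1+/- libraries and at most 10.4 in the others, against 14, 10 and 5.6 in the wild-type libraries.

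A few P450 genes supplied most of the P450 transcripts. Levels between genes are compared here in deposited TPM, transcript levels that account for length and depth. Only 4 members averaged 100 TPM or more over the 12 samples, 23 averaged 10 TPM or more, 31 lay between 1 and 10 TPM, and 23 were under 1 TPM. The 3 highest made up 41.6% of the summed P450 TPM, and the 6 highest made up 59.7%. Family CYP2, with 35 members, held 52.2% ± 2.42 of that sum in pdx1+/- kidneys (SD, n = 9) and 51.4% ± 4.46 in wild-type kidneys (SD, n = 3). CYP4 came next with 4 members, at 17.1% ± 1.55 in pdx1+/- kidneys (SD, n = 9) and 18.5% ± 1.43 in wild-type kidneys (SD, n = 3). CYP1 held 9.14% and CYP3 held 8.14% averaged over all 12 kidneys. The remaining families were smaller, from 3.31% for CYP7 and 2.66% for CYP27 down to 0.0289% for CYP24.

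The highest member was cyp4t8, a fish gene of the fatty acid hydroxylase family CYP4. Its level was 149, 189 and 232 TPM (lowest, median and highest) in pdx1+/- kidneys, against 194, 254 and 232 TPM in the wild-type kidneys. Next came cyp2k22, of a fish subfamily of CYP2, at 79.7, 192 and 213 TPM (lowest, median and highest) in pdx1+/- kidneys, against 236, 269 and 128 TPM in wild-type kidneys. The level of cyp2aa12, of another fish CYP2 subfamily, was 143, 175 and 210 TPM (lowest, median and highest) in pdx1+/- kidneys, against 150, 190 and 159 TPM in wild-type kidneys. The ranges of these 3 genes overlapped, so their order is within the spread between kidneys. The fourth, cyp2ad2, was far less even than cyp4t8 and cyp2aa12, and somewhat less even than cyp2k22. Its level was 40.7, 87.2 and 168 TPM (lowest, median and highest) in pdx1+/- kidneys, against 157, 74.6 and 130 TPM in wild-type kidneys.

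**Figure D1:**
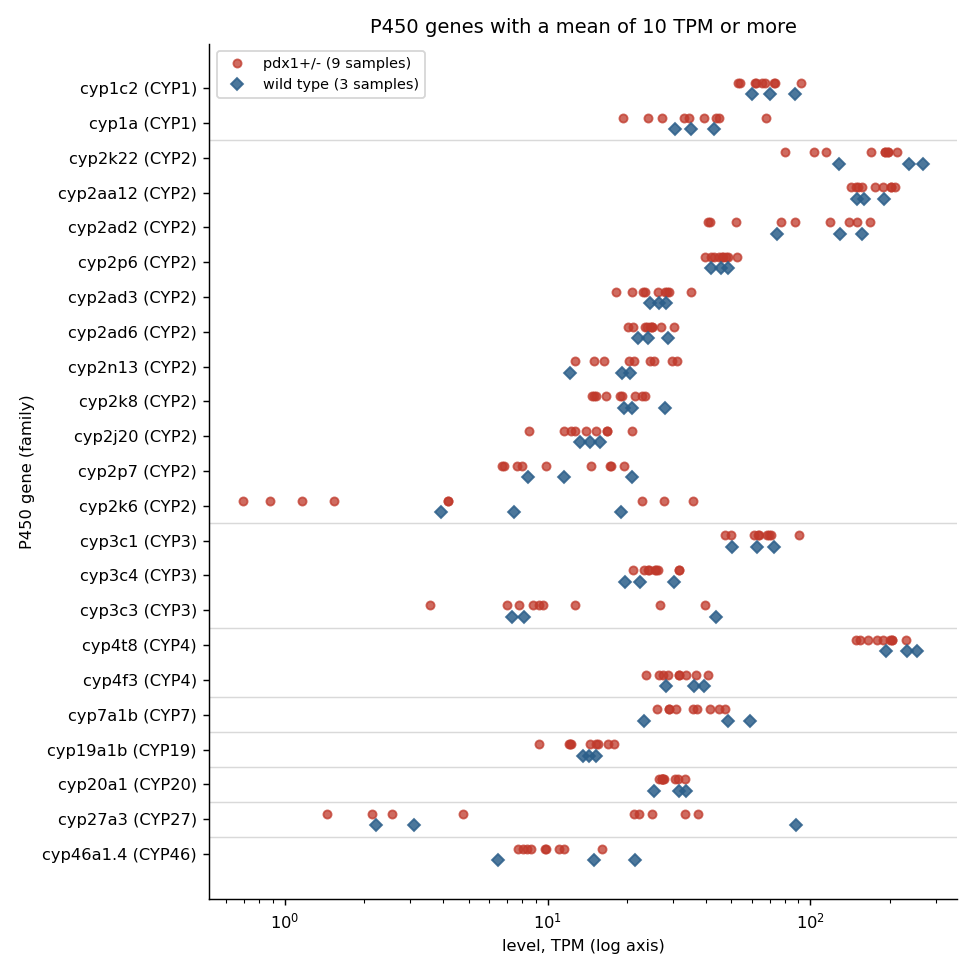
Levels of the 23 P450 genes with a mean of 10 TPM or more, grouped by family; each circle is 1 of the 9 pdx1+/- samples and each diamond 1 of the 3 wild-type samples, on a log axis of TPM. Most genes keep within a narrower band, while cyp2k6, cyp27a3 and cyp3c3 spread widely in both genotypes. The spread of cyp2ad2 was similar in both, with an SD of 48.7 TPM in pdx1+/- and 42.1 TPM in wild-type kidneys.

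In families of foreign-compound metabolism other than CYP2, a few genes led each. In CYP1 these were cyp1c2, a fish CYP1 gene, with a mean of 68.2 TPM over the 12 kidneys, and cyp1a, the classical target of the aryl hydrocarbon receptor, with 36.9 TPM. The other CYP1 genes, cyp1b1, cyp1d1 and cyp1c1, averaged 7.02, 4.03 and 3.18 TPM. In CYP3 the fish genes cyp3c1, cyp3c4 and cyp3c3 averaged 64.1, 25.5 and 15.4 TPM, and cyp3c3 exceeded cyp3c4 in heterozygous replicates 2 and 5 and wild-type replicate 3. By contrast cyp3a65, the zebrafish gene of the CYP3A drug-metabolizing group, averaged 0.397 TPM. In CYP4, cyp4f3, of the subfamily that inactivates leukotrienes in humans, averaged 32.0 TPM, and the pair cyp4v2a and cyp4v2b averaged 0.372 and 0.240 TPM.

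Sterol P450s covered a wide range. The leading gene was cyp7a1b, named as a copy of the gene for the first enzyme of bile acid synthesis, at 35.6 ± 7.55 TPM in pdx1+/- kidneys (SD, n = 9) and 43.7 ± 18.4 TPM in wild-type kidneys (SD, n = 3). All 5 members of the cyp46a1 group, named for the cholesterol hydroxylase of the brain in mammals, were at 0.204 TPM or more in every kidney, led by cyp46a1.4 with a mean of 11.2 TPM. In family CYP27, cyp27a3 averaged 20.3 TPM, next below cyp7a1b by mean, but ran from 1.45 to 88.2 TPM between kidneys. The lanosterol demethylase gene cyp51 averaged 8.05 TPM, and the oxysterol hydroxylase gene cyp7b1 averaged 5.66 TPM. Near the lower end were cyp39a1 at 0.674 TPM and the sterol hydroxylase genes cyp8b1.1, cyp8b1.3 and cyp8b1.2 at 0.491, 0.418 and 0.293 TPM.

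Among the P450s of hormones and vitamins, cyp19a1b, the aromatase known from the fish brain, averaged 14.1 TPM. The gonadal aromatase gene cyp19a1a averaged 0.0366 TPM, and its counts were too low for it to be tested. The steroid hydroxylase gene cyp17a1 averaged 1.74 TPM. For vitamin D, the activating enzyme gene cyp27b1 averaged 0.619 TPM, the gene cyp2r1, for an earlier activating step, 0.341 TPM, and cyp24a1, whose product breaks the hormone down, 0.375 TPM. Of the retinoic acid hydroxylases, cyp26b1 averaged 4.63 TPM, cyp26c1 2.68 TPM and cyp26a1 0.478 TPM. The orphan P450 gene cyp20a1 averaged 29.1 TPM.

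P450 genes differed between individual kidneys more than the typical gene did. Variation is given as the SD of log2 CPM over the 12 kidneys, for the 70 members that passed the count filter. The remaining 7 members (cyp19a1a, cyp2aa3, cyp2aa4, cyp2k17, cyp2k20, cyp2x8 and cyp4v2a) did not pass it. The median SD was 0.46 over the 70 members and 0.33 over all 23732 genes tested. An SD above 1 was found for 13 of the 70 members, beside 6.70% of all genes tested. Of the members, 16 lay above 0.83, the 90th percentile of all genes. Among genes with a mean of at least 1 CPM, 58 of them members, the medians were 0.41 for members and 0.30 for all genes.

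**Figure D2:**
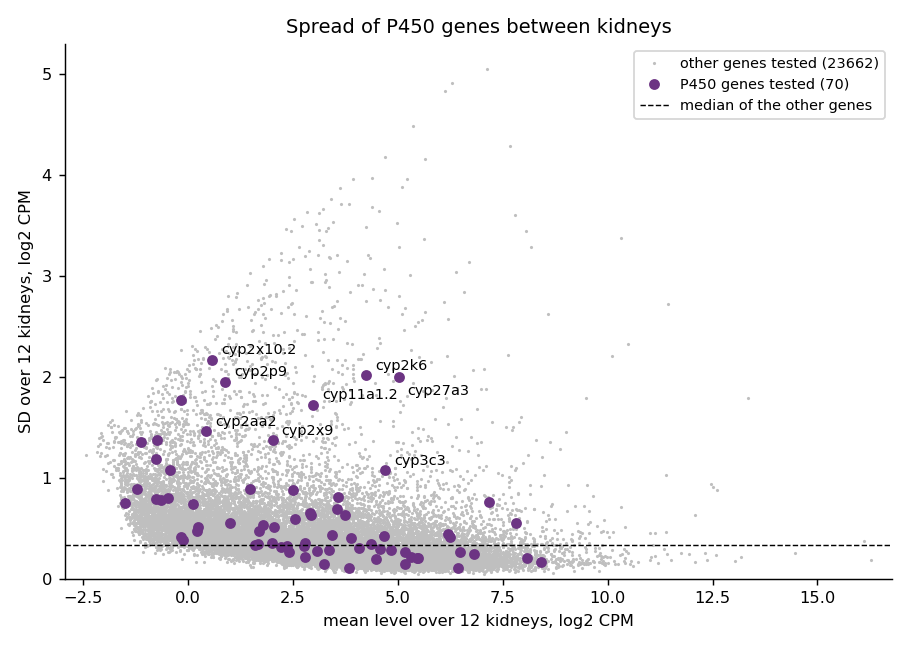
Spread of each tested gene between the 12 kidneys (SD of log2 CPM, vertical axis) against its mean level (log2 CPM, horizontal axis); large purple points are the 70 P450 genes, small grey points the other genes tested, and the dashed line their median. The 8 labelled P450 genes have SDs between 1.07 and 2.17 on the log2 scale, while many others lie at or below the dashed line.

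The steadiest members were cyp27a1.1, a gene of the mitochondrial sterol hydroxylase group, and cyp2p6, a fish CYP2 gene. The level of cyp2p6 ran only from 79.1 to 93.5 CPM in pdx1+/- kidneys and from 75.6 to 95.2 CPM in wild-type kidneys. That of cyp27a1.1 ran from 12.9 to 15.8 CPM in pdx1+/- kidneys and from 12.8 to 14.99 CPM in wild-type kidneys. The SD on the log2 scale was 0.103 for cyp27a1.1 and 0.104 for cyp2p6, and the orphan gene cyp20a1 followed with 0.145.

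Some of the most variable members fell into a high and a low range, and others ran through all levels between. For cyp2x10.2, a fish CYP2 gene, heterozygous replicates 4, 6, 8 and 9 stood at 3.06, 3.46, 3.38 and 4.58 CPM, and the other 5 pdx1+/- kidneys at 0.214 CPM or less. The wild-type kidneys were split too, at 2.51, 0.284 and 0 CPM, so both ranges occurred in both genotypes. A further fish CYP2 gene, cyp2p9, was at 6.02, 4.62, 8.11 and 1.68 CPM in heterozygous replicates 1 to 4. The other 5 pdx1+/- kidneys had between 0.113 and 0.422 CPM, and the wild-type kidneys 0.178, 0.287 and 0.221 CPM. The counts behind the high values of cyp2p9 were 28.9 to 133, against 2.02 to 8.11 in the 8 low libraries. The CYP2 genes cyp2aa2 and cyp2x9 also spread widely. In pdx1+/- kidneys cyp2aa2 ran from 0.0572 to 3.40 CPM with a median of 1.51 CPM, against 0.298, 0.284 and 2.06 CPM in wild-type kidneys. The same figures for cyp2x9 were 0.337 to 9.47 CPM with a median of 4.37 CPM in pdx1+/- kidneys, against 7.16, 1.25 and 6.02 CPM in wild-type kidneys.

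The gene cyp11a1.2, named for the side-chain cleavage enzyme that starts steroid hormone synthesis, was among the most variable members, with an SD of 1.72 on the log2 scale and values spread through its range. Its level was 0.156, 8.12 and 19.7 CPM (lowest, median and highest) in pdx1+/- kidneys, against 6.96, 5.62 and 3.35 CPM in wild-type kidneys. The interrenal marker star, which carries cholesterol into mitochondria, moved alongside it: star was highest in heterozygous replicates 1, 3 and 2, at 333, 312 and 294 CPM, and lowest in heterozygous replicate 8, at 7.19 CPM. Those 3 libraries were also the highest for cyp11a1.2, at 19.7, 17.2 and 14.4 CPM, and heterozygous replicate 8 was the lowest, at 0.156 CPM. Summed over the whole list of 11 interrenal and chromaffin genes, levels ran from 196 to 646 CPM in pdx1+/- and from 282 to 377 CPM in wild-type kidneys. In RNA of a whole organ, fewer cells of a type and less RNA per cell cannot be told apart, here and for each gene below.

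Many zebrafish P450 genes lie side by side as tandem copies, and neighbours could differ widely in level and in spread. In the order of RefSeq genes (assembly GRCz12tu, used only for names and order), 43 of the 77 members lay in 7 runs of 3 or more, with at most 3 other protein-coding genes between neighbours. The longest run held 11 CYP2 genes, from cyp2n13 to cyp2j20. It contained cyp2ad2 at a mean of 103 TPM and, 5 places on, cyp2p8 at 0.317 TPM. It also contained the steady cyp2p6, with an SD of 0.104 on the log2 scale, and cyp2p9, with 1.95. Along the run, cyp2ad2 and cyp2p9 went opposite ways in heterozygous replicates 1, 2 and 3. There cyp2ad2 was at 56.3, 72.3 and 54.6 CPM, its 3 lowest values, against 98.9 to 225 CPM in the other 9 kidneys, while cyp2p9 had its 3 highest. Between them, cyp2p7 was at 7.03, 8.57 and 7.02 CPM in those 3 kidneys, against 8.57 to 23.1 CPM in the others.

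**Figure D3:**
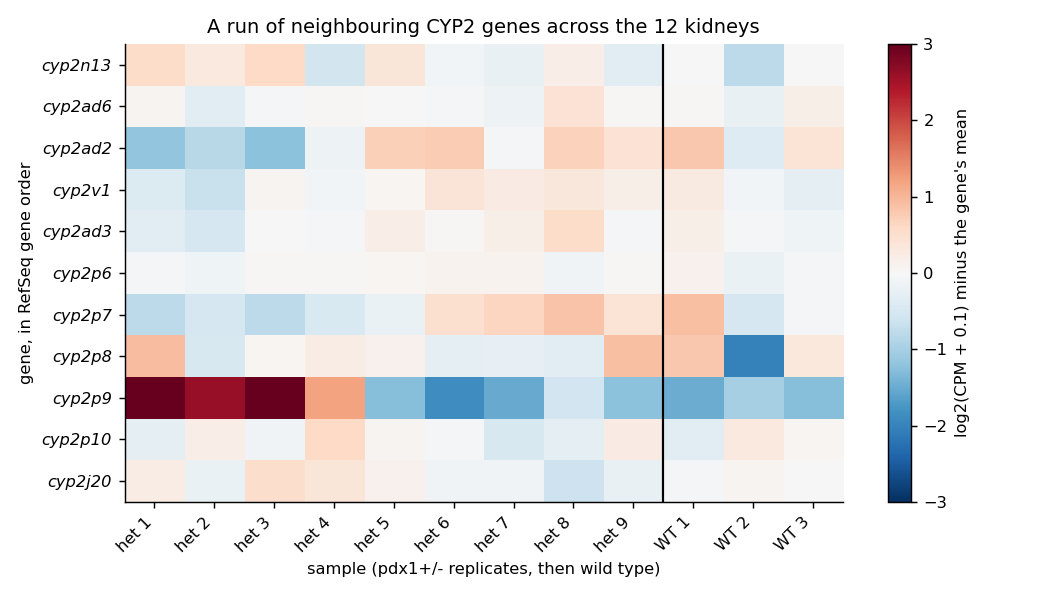
Levels along the run of 11 neighbouring CYP2 genes (rows, in RefSeq gene order) in the 9 pdx1+/- and 3 wild-type kidneys (columns), as log2(CPM + 0.1) minus the gene's mean; red is above the mean and blue below, with the colours cut at 3 and -3. Heterozygous replicates 1, 2 and 3 are high for cyp2p9 and low for cyp2ad2, and cyp2p6 between them hardly changes colour.

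Reads of copies that resemble each other may match several genes. The estimated counts were not whole numbers (tolerance 0.001) in all 12 libraries for 25 members. These include cyp2k22, cyp2aa12, cyp2p9, cyp3c3 and cyp27a1.2, and their levels are uncertain. Counts were whole in every library for 17 members, which include cyp1a, cyp27a3 and cyp11a1.2. Over all genes listed, 50.5% to 51.9% of the values in a library were not whole, at a stricter tolerance. Members outside every run, such as cyp51 and cyp17a1, were among the 25, and the source of the fractions was not tested. The other runs held 9 genes from cyp2aa12 to cyp2ae1, 8 from cyp2k18 to cyp2k6, the 5 cyp46a1 genes, the 4 cyp3c genes, and 3 genes each of cyp8b1 and cyp27a1. In the cyp2aa run cyp2aa12 averaged 173 TPM, and none of the 8 genes after it averaged more than 7.14 TPM.

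The kidneys also fell into 2 ranges of ddc, the gene of DOPA decarboxylase. Above 1000 CPM lay 5 pdx1+/- and 1 wild-type kidney, at 4332 to 6469 CPM, and below it lay 4 pdx1+/- and 2 wild-type kidneys, at 111 to 220 CPM. These ranges come from the data and are no groups of the study, so values are described without a test. In 4 of the 70 tested members, 5.71%, CPM did not overlap between the ranges, beside 2.65% of all genes tested. High-ddc kidneys were wholly above in 2 members, cyp27a3 and cyp1a, beside 1.9% of all genes. They were wholly below in another 2, cyp2k8 and cyp2k6, beside 0.754% of all genes.

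The widest gap was that of cyp27a3, a gene of the mitochondrial sterol hydroxylase family. Its level was 32.5, 47.3 and 137 CPM (lowest, median and highest) in high-ddc kidneys, against 2.40, 3.96 and 8.03 CPM in low-ddc kidneys. The lowest high-ddc kidney was thus 4.04 times the highest low-ddc kidney. Replicate 2, the only wild-type kidney with high ddc, had the highest value of all, 137 CPM, while the other wild-type kidneys had 5.20 and 3.45 CPM. No other member of family CYP27 was separated: the steady cyp27a1.1 ran from 13.8 to 15.8 CPM in high-ddc and from 12.8 to 14.99 CPM in low-ddc kidneys. The electron donor gene fdx1, which encodes the ferredoxin that serves mitochondrial P450s, was split the same way, at 81.5 to 289 CPM in high-ddc and 17.96 to 20.9 CPM in low-ddc kidneys. All other electron donor genes overlapped. Among them fdx1b ran from 3.93 to 32.0 CPM in high-ddc and from 0.916 to 21.5 CPM in low-ddc kidneys. The ferredoxin reductase gene fdxr ran from 6.24 to 13.3 CPM in high-ddc and from 8.47 to 12.1 CPM in low-ddc kidneys. The set-aside gene cyp7a1 ran from 201 to 524 CPM in high-ddc and from 0.0521 to 0.378 CPM in low-ddc kidneys.

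The level of cyp1a was 74.1, 80.7 and 130 CPM (lowest, median and highest) in high-ddc kidneys, against 38.5, 60.2 and 67.9 CPM in low-ddc kidneys. The ranges nearly met, with a ratio of 1.09 between their nearest values, and in TPM they overlapped. Of the aryl hydrocarbon receptor genes, ahr1a was at 5.73 to 84.9 CPM in high-ddc and 0.214 to 0.565 CPM in low-ddc kidneys, whereas ahr2 ran from 226 to 311 CPM in high-ddc and from 273 to 377 CPM in low-ddc kidneys and overlapped. The other CYP1 genes overlapped between the ranges. Of these cyp1c2 went the other way from cyp1a and overlapped only narrowly. It ran from 90.9 to 104.3 CPM in high-ddc and from 103.4 to 155.8 CPM in low-ddc kidneys.

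Of the members that were lower in high-ddc kidneys, cyp2k6, a fish CYP2 gene, varied most. It was at 1.06, 2.36 and 6.95 CPM (lowest, median and highest) in high-ddc kidneys, against 7.17, 35.4 and 65.7 CPM in low-ddc kidneys. Heterozygous replicate 1 with high ddc and heterozygous replicate 2 with low ddc stood next to each other, at 6.95 and 7.17 CPM. Its neighbour in the same run, cyp2k8, was at 21.1, 23.9 and 27.02 CPM (lowest, median and highest) in high-ddc kidneys, against 28.7, 33.5 and 38.7 CPM in low-ddc kidneys, and in TPM these overlapped. The fish CYP3 gene cyp3c3 was at 5.93, 13.04 and 15.5 CPM in high-ddc kidneys, against 14.2, 33.8 and 70.0 CPM in low-ddc kidneys (lowest, median and highest). The ranges of cyp3c3 overlapped at wild-type replicate 1, the lowest of the low-ddc kidneys. Within the 9 pdx1+/- kidneys alone, 6 members did not overlap, cyp3c3 (lower in high ddc) and cyp8b1.3 (higher) beside the 4 above, where 5.26% of all genes tested did not. The ranges of cyp8b1.3 nearly met near the floor of 3 counts. The lowest high-ddc value was 0.191 CPM (3.34 counts) and the highest low-ddc value 0.188 CPM (3.60 counts).

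**Figure D4:**
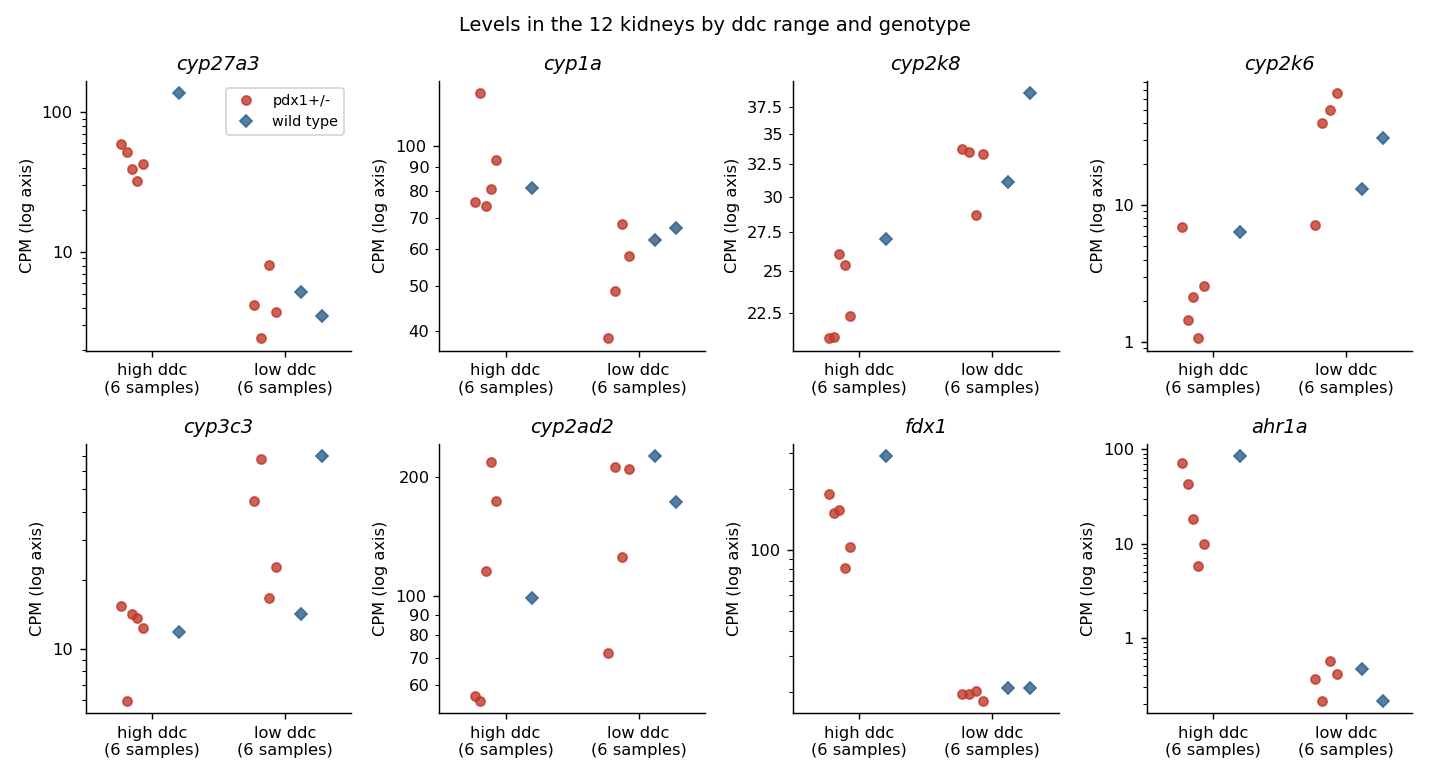
Levels (CPM, log axes) of 6 P450 genes, the ferredoxin gene fdx1 and the receptor gene ahr1a in the 6 kidneys with high ddc and the 6 with low ddc; circles are pdx1+/- and diamonds wild-type samples. In cyp27a3, cyp1a, cyp2k8, cyp2k6, fdx1 and ahr1a the ranges do not overlap, and in cyp3c3 and cyp2ad2 they do.

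Summed markers of other cell types overlapped between the ranges. Exocrine pancreas markers summed to 125 to 197 CPM in high-ddc and 182 to 404 CPM in low-ddc kidneys. Neutrophil markers summed to 1332 to 1955 CPM in high-ddc and 1681 to 3273 CPM in low-ddc kidneys, and proximal tubule markers to 5431 to 7090 CPM in high-ddc and 4072 to 8453 CPM in low-ddc kidneys. Ovary and yolk protein genes summed to 3.22 to 6.69 CPM in high-ddc and 6.04 to 83.1 CPM in low-ddc kidneys. The values of single markers did not overlap for 1 of 6 tested genes of the enterocyte list and 1 of 16 proximal tubule genes. The same held for 1 of 9 ovary and yolk protein genes and for no gene of the other marker lists. Over all genes tested, 2.65% did not overlap. The enterocyte marker mttp was at 8.65 to 21.2 CPM in high-ddc and 0.937 to 4.80 CPM in low-ddc kidneys. The proximal tubule marker slc4a4a was at 116 to 152 CPM in high-ddc and 36.8 to 102 CPM in low-ddc kidneys. The yolk protein gene vtg3 was at 0 to 0.330 CPM in high-ddc and 0.792 to 10.5 CPM in low-ddc kidneys. The part of these cell types in the P450 differences was not tested.

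Between genotypes, no P450 gene passed the test. The comparison asks whether losing 1 copy of pdx1 changes P450 expression in the kidney. In edgeR's quasi-likelihood test with Benjamini-Hochberg adjustment, 0 of 70 members reached an adjusted p under 0.05, beside 0.00421% of all genes tested (1 of 23732). The lowest adjusted p among members was 0.836. At an unadjusted p under 0.05 there were 2 members, cyp4v2b and cyp27a1.2, where 5.68% of all genes did so. DESeq2 also called 0 members, beside 0.261% of all genes, with 4 members at an unadjusted p under 0.05, where 6.39% of all genes did so. Of the 70 log2 fold changes 39 were above 0 and 31 below, with a median of 0.05, beside 0.01 over all genes tested. No member's CPM lay wholly above wild type in the pdx1+/- kidneys, beside 0.704% of all genes, and none lay wholly below, beside 0.699%.

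**Figure D5:**
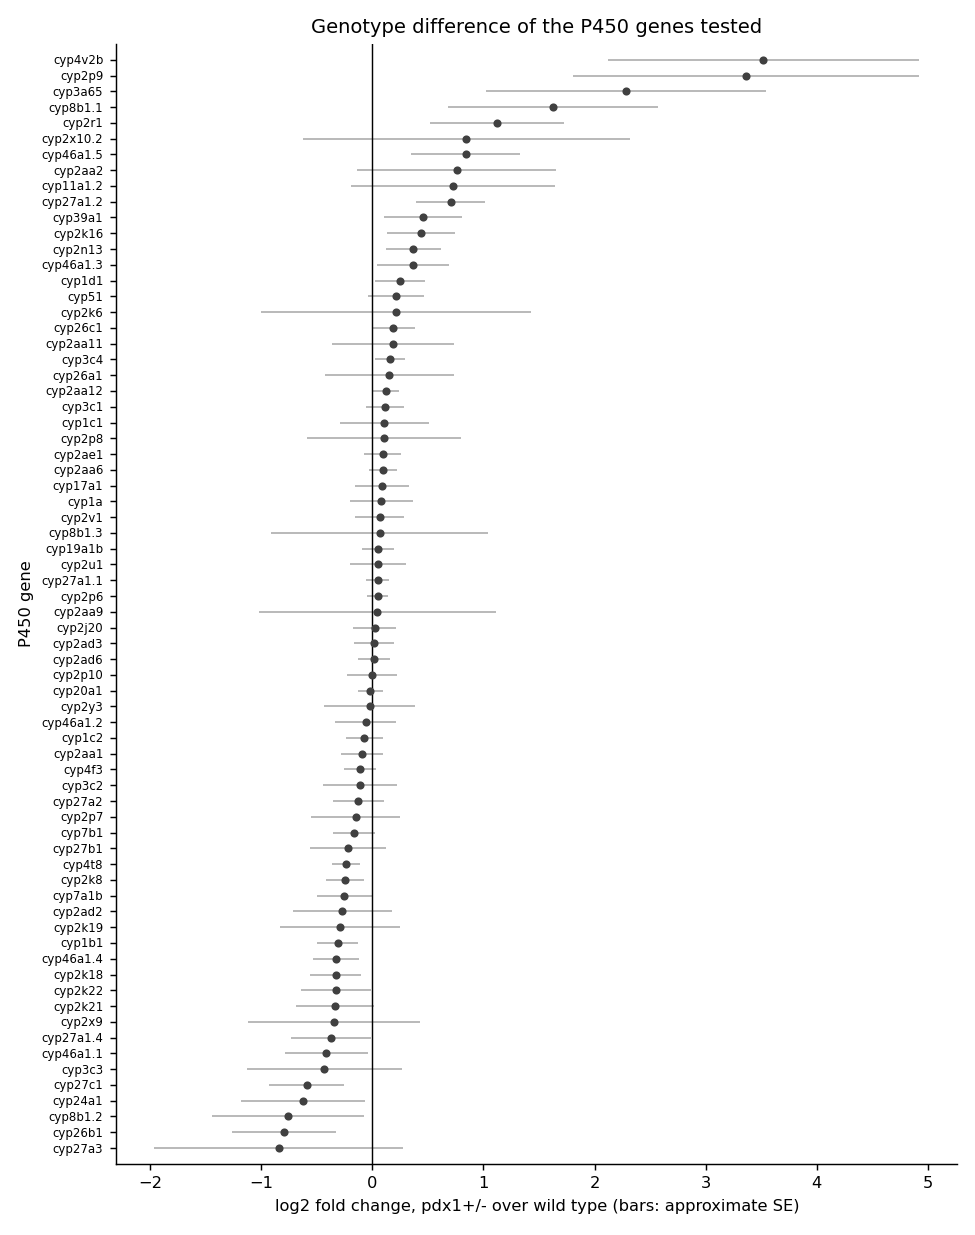
Log2 fold change of each of the 70 tested P450 genes, pdx1+/- over wild type, in order of size, with bars of 1 approximate SE from the edgeR fit. Of the 70, 39 lie above 0 and 31 below, and the largest changes, of cyp4v2b and cyp2p9, carry SEs of 1.40 and 1.56.

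The smallest p was that of cyp4v2b, whose human counterpart CYP4V2 hydroxylates fatty acids. Estimated counts were 41, 41, 24, 37 and 32.5 in heterozygous replicates 3, 4, 6, 8 and 9, and between 1 and 3 in the other 4 pdx1+/- kidneys, against 3.5, 0.5 and 1 in wild-type kidneys. It was thus split within the pdx1+/- group, and the low pdx1+/- values lay among the wild-type ones. The log2 fold change was 3.52 ± 1.40 (approximate SE; edgeR, adjusted p = 0.836), with 7 of 9 pdx1+/- kidneys above the wild-type mean. Over the alternatives it ran from 2.52 with the replicate block to 5.08 without wild-type replicate 1, with adjusted p between 0.255 and 1. In the replicate block only replicates 1 to 3 of each genotype inform the fold change, since replicates 4 to 9 were all pdx1+/-. Its neighbour in name, cyp4v2a, was at 3.67 CPM in heterozygous replicate 4, the library with liver transcripts, and at 2.58 CPM in wild-type replicate 2, and at most 0.358 CPM elsewhere. Of those kidneys, heterozygous replicate 4 was also high for cyp4v2b.

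The change of cyp27a1.2, of the mitochondrial sterol hydroxylase group, was smaller but more even. It was at 2.32, 3.40 and 5.45 CPM (lowest, median and highest) in pdx1+/- kidneys, against 2.52, 2.99 and 1.45 CPM in wild-type kidneys. All 9 pdx1+/- kidneys were above the wild-type mean, but the lowest only just, at 2.324 against 2.323 CPM, and the ranges overlapped. The log2 fold change came to 0.71 ± 0.31 (approximate SE; edgeR, adjusted p = 0.864). Over the alternatives it ran from 0.45 without wild-type replicate 3 to 0.95 without wild-type replicate 2. For cyp2p9, whose high values were described above, the log2 fold change was 3.36 ± 1.56 (approximate SE; edgeR, adjusted p = 0.886), with 6 of 9 pdx1+/- kidneys above the wild-type mean.

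The other members with small p were also short of the threshold, with adjusted p between 0.910 and 0.931 in edgeR. The vitamin D enzyme gene cyp2r1 had a log2 fold change of 1.13 ± 0.60, from 0.267 to 1.75 CPM in pdx1+/- kidneys against 0.409, 0.227 and 0.486 CPM in wild-type kidneys. Its highest value was that of heterozygous replicate 4, the library with liver transcripts, without which the log2 fold change was 0.92. That of cyp4t8, the member with the highest level, was -0.23 ± 0.13, with 1 of 9 pdx1+/- kidneys above the wild-type mean. The vitamin A desaturase gene cyp27c1 had -0.59 ± 0.33, from 1.06 to 3.38 CPM in pdx1+/- kidneys against 2.92, 1.93 and 3.18 CPM in wild-type kidneys. Each of these overlapped between the genotypes.

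In cyp3a65 and cyp8b1.1, the library with liver transcripts was the highest. The level of cyp3a65 was 3.26 CPM in heterozygous replicate 4 and 0.0613 to 1.65 CPM in the other 8 pdx1+/- kidneys, against 0.0585, 0.0568 and 0.324 CPM in wild-type kidneys. That of cyp8b1.1 was 4.11 CPM in heterozygous replicate 4 and 0.266 to 0.826 CPM in the other pdx1+/- kidneys, against 0.574, 0.126 and 0.185 CPM in wild-type kidneys. The log2 fold change of cyp8b1.1 was 1.63 ± 0.94 with that library (approximate SE, edgeR adjusted p = 0.931) and 0.79 without it (edgeR adjusted p = 0.974). Over all alternatives it ran from 0.64 with the replicate block, which heterozygous replicate 4 does not inform, to 2.64 without wild-type replicate 1. That of cyp3a65 was 2.28 ± 1.26 with it (approximate SE; edgeR, adjusted p = 0.913), and the gene no longer passed the count filter without it, nor without heterozygous replicate 3 or 6, the only others with 10 counts or more. The part of liver RNA in these values was not tested otherwise.

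Summed over all 77 members, P450 transcripts came to 1270 ± 71.2 TPM in pdx1+/- kidneys (SD, n = 9) and 1416 ± 33.6 TPM in wild-type kidneys (SD, n = 3). The samples did not overlap, with 1146 to 1354 TPM in pdx1+/- and 1384 to 1452 TPM in wild-type kidneys. In CPM the sums did overlap, at 1872 to 2181 in pdx1+/- and 2122 to 2201 in wild-type kidneys. Without the 3 highest members, they also overlapped in TPM, at 647 to 841 in pdx1+/- and 738 to 894 in wild-type kidneys. This sum is a description and was not tested.

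Of the genes that work with the P450s, none passed the test of genotype either. In 10 lists of partner genes, from electron donors to conjugating enzymes, 0 tested genes passed the threshold in either direction in edgeR, and the number with an unadjusted p under 0.05 was at most 2 in a list. Of 14 electron donor genes, 7 had log2 fold changes above 0 and 7 below, among them the reductase gene pora with -0.33 and the ferredoxin reductase gene fdxr with 0.26. Of the 11 tested genes of the aryl hydrocarbon receptor system, 9 were below 0 and 2 above. These included the chaperone genes aip at -0.29 and hsp90ab1 at -0.25, and the list's median was -0.21, beside 0.01 over all genes tested. Its summed level did not overlap, at 2220 to 2995 CPM in pdx1+/- and 3047 to 3216 CPM in wild-type kidneys. Most of that sum was hsp90ab1, which itself overlapped, at 1552 to 2294 CPM in pdx1+/- and 2242 to 2469 CPM in wild-type kidneys. The sums of all other partner lists overlapped between the genotypes, and no sum was tested. Among 23 nuclear receptors and related factors, 10 were above and 13 below 0, among them the bile acid receptor gene nr1h4 with 0.33 and the liver factor gene cebpa with -0.42.

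Conjugating enzymes and other oxidases and hydrolases were as mixed. In the first of these lists 21 of 43 tested genes were above and 22 below 0. Its sulfotransferase gene sult1st3 had a log2 fold change of -2.54, with 1 wild-type kidney far above the rest. Wild-type replicate 3 was at 103 CPM, against 5.02 and 17.2 CPM in the other wild-type kidneys and 2.91 to 12.1 CPM in pdx1+/- kidneys. A related gene, sult2st3, had -0.58. In the second list 5 of 17 were above and 12 below 0, among them the aldehyde dehydrogenase genes aldh3a2a with 0.35 and aldh2.1 with -0.40. That list's summed level was split by ddc, at 1933 to 3840 CPM in high-ddc and 450 to 731 CPM in low-ddc kidneys. The bile acid list's sum was split too, at 357 to 578 CPM in high-ddc and 178 to 211 CPM in low-ddc kidneys. Of its 12 tested genes only 2 were separated, the transport genes slc51a and abcb11a. The sum of the conjugation list nearly met, at 1482 to 2073 CPM in high-ddc and 1009 to 1478 CPM in low-ddc kidneys. Of the 17 tested genes of other oxidases and hydrolases only 3 were separated, the monoamine oxidase gene mao, ces2b and aldh3a2b. The rest of that list overlapped. The largest part in high-ddc kidneys was mao, at 1009 to 2149 CPM, against 81.0 to 163 CPM in low-ddc kidneys. Counted over the 10 lists, 14 of 194 tested genes were wholly higher in high-ddc kidneys, 7.22% beside 1.9% of all genes, these 3 among them. Another 3, rbp5, pla2g4aa and hpgd, were wholly lower, 1.55% beside 0.754% of all genes. The lists were chosen with earlier results of these data known. These shares therefore cannot show whether partner genes follow ddc more than other genes do.

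In the retinoic acid list 15 of 24 tested genes were above and 9 below 0. The retinoic acid receptor gene rarga was at 18.98 to 24.01 CPM in pdx1+/- kidneys and 25.3, 27.2 and 26.3 CPM in wild-type kidneys. These did not overlap, but its log2 fold change of -0.37 ± 0.10 missed the threshold (approximate SE; edgeR, adjusted p = 0.565). The retinol-binding gene rbp7b had 1.34, at 1.22 CPM or less in every kidney. Vitamin D genes split 5 above and 2 below 0, with the receptor genes vdra and vdrb at 0.21 and 0.26. Cholesterol synthesis genes split evenly, 14 above and 14 below, with the low-density lipoprotein receptor gene ldlra at 0.78 and the mevalonate enzyme gene mvda at 0.36. Of 12 bile acid genes 5 were above and 7 below 0, among them the uptake carrier gene slc10a2 with -0.95 and the co-receptor gene klb with 0.60. Eicosanoid genes split 5 above and 10 below, with the prostaglandin synthase gene ptgdsb.1 at 1.98 and the lipoxygenase gene alox12 at -0.16. None of the log2 fold changes in these 10 lists came with an adjusted p under 0.05 in edgeR.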

How the data were processed

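RNA came from whole kidneys stored in RNAlater and was sequenced from BGISeq-500 libraries, per the labels' protocols. Per the submitters' processing notes, Trim Galore 0.6.4, kallisto (listed as 0.4.6) and build GRCz11 were used. The use of strand and the summing of transcripts to genes are not given in the sources used here. Both kinds of file list whole genes. The deposited estimated counts per Entrez gene were not normalized, and in the deposited TPM values the authors had accounted for length and depth. Symbols from RefSeq (GRCz12tu) named 25812 of 30238 genes.

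Counts were rounded and fitted in edgeR 4.0.16 (R 4.3.3): filterByExpr with minimum count 10, TMM, robust quasi-likelihood F test over 12 samples, and Benjamini-Hochberg adjustment over 23732 genes with a threshold of 0.05. SEs are approximate, the log2 fold change over the square root of F. CPM used TMM-scaled totals, and log2 CPM for SDs used a prior count of 2. The fit was tested on simulated data. Totals averaged 17742318 ± 924615 counts in pdx1+/- libraries (SD, n = 9) and 17588403 ± 381350 counts in wild-type libraries (SD, n = 3). Floors cover counting error only. No pair of libraries agreed within sampling noise (lowest chi-square per gene 17.3).

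Alternatives were RLE and upper quartile scaling, no count filter, DESeq2 1.42.0, limma 3.58.1 (voom, and trend on log2 TPM), ddc range or replicate number as a term, other ddc limits, and each sample left out. The members and lists were chosen with earlier results of these data known. Named members were the 6 highest, the highest of each family, the 8 smallest p, the 8 most variable with a mean of at least 1 CPM, those with that mean that did not overlap between ddc ranges, and 2 genes per partner list by p. Others, such as fdx1, ahr1a, the hepatocyte genes and further members of a family or run, were chosen after their values were seen.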

Additional observations from a re-analysis of the deposited data

Results flagged for a closer look

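In the group of 9 pdx1+/- kidneys, 31 named P450 genes were examined for a sample far from the others, and 2 had one. The highest cyp8b1.1 value, 4.11 CPM in heterozygous replicate 4, stood off from the next, 0.826 CPM, by 0.854 of the group's range. The highest cyp3a65 value, 3.26 CPM in the same library, stood off from the next, 1.65 CPM, by 0.503 of the range. For normally distributed values of genes not chosen from the data, chance sets a sample apart this way in about 1 in 20 groups. Here the values were CPM without a log scale. Some of the 31 genes were named for a small p or a wide spread, and both flagged genes were among those with the smallest p. The chance rate for these 31 genes is therefore not known, and whether 2 is more than chance gives was not tested. That library also had the highest hepatocyte marker sum, 2675 CPM against at most 267 CPM elsewhere, and its part in the 2 values was not tested.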

How the results depend on the processing

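No P450 gene was called by genotype in any of the fits tried, including those without 1 sample (limma-voom found 0 at an unadjusted p under 0.05). None of the 8 members with the smallest p changed direction over their 148 alternatives (lowest adjusted p 0.255, for cyp4v2b in DESeq2). Fits on log2 TPM and without the count filter were not among these 148. The 8 were chosen by p in these data, and most alternatives reuse nearly the same samples, so a kept direction was likely beforehand. The median log2 fold change of members, 0.05, was 0.01 to 0.06 with 1 sample left out, -0.0219 on log2(TPM + 1) and -0.0343 on log2(TPM + 0.1), where the median of all genes was -0.04 and -0.05. With the replicate block it was 0.03 and 0 members were called. In that fit 11 of 70 members had an unadjusted p under 0.05, a larger share than the 7.05% of all genes. In the main fit it was 2 of 70 members, beside 5.68% of all genes. The labels do not say whether same-numbered samples were paired. Their deviations from the genotype means correlated at -0.22, -0.16 and 0.10 in replicates 1, 2 and 3. These values cannot decide it, since in each of these pairs the kidneys lay in opposite ddc ranges. Members without overlap between genotypes numbered 0 to 3 with 1 sample left out: 2 (cyp2k18 and cyp8b1.1) without wild-type replicate 1, and 3 when either of the other wild-type kidneys was left out, where 3.79%, 6.09% and 3.08% of all genes did not overlap in turn. Those without overlap between ddc ranges numbered 2 in TPM (cyp27a3 and cyp2k6, beside 2.32% of all genes) and 4 to 7 with 1 sample left out, 7 without heterozygous replicate 2, which added cyp2aa12, cyp2k19 and cyp2k21 (5.54% of all genes). The median SD was 0.295 for members and 0.251 for all genes tested on log2(TPM + 1). Genes called over the whole table numbered 62 in DESeq2, 3 with ddc range as a term, 0 with the replicate block and 3 on log2(TPM + 0.1), against 1. The fit without heterozygous replicates 4 and 8 together was chosen after seeing the data. Depth limits the members under 1 TPM most.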
